A study of Mus musculus with 12 samples.

Results

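The stefins are small cytoplasmic inhibitors of cysteine proteases, and the genes described here are Stfa1, Stfa2, Stfa2l1, Stfa3 and Cstb, 5 of the 32498 named gene rows in the RNA-seq files and 5 of the 16852 genes that averaged 0.1 FPKM or more (reads per gene, divided by gene length and library total). They were chosen by family membership and from measured values of these same libraries: Stfa2 had drawn attention through the comparison of gallic acid (GA) with vehicle, and the others through their co-variation with S100a9 and Krt13. Both of those measures are therefore given below as descriptions of the members, with no p-value for them. The libraries came from tongue tissue of C57BL/6 mice, 6 labelled vehicle and 6 labelled GA. All mice, controls included, drank the carcinogen 4-nitroquinoline 1-oxide (4NQO) at 100 µg/mL for 16 weeks. GA, a plant phenolic acid, was given by gavage from week 4, at 100 mg/kg and 5 times weekly, and controls were gavaged with the methyl cellulose and Tween-20 carrier alone. Mice were purchased at 5 weeks of age, and their age at sacrifice and their sex are not given in the sources used here. Samples were labelled as tumor and tumor-associated tissue, so a library could mix lesion, epithelium, muscle and infiltrating cells. The share of lesion in each library was not measured, and each library was taken as 1 mouse.

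Cysteine cathepsins are proteases of the lysosome that can also act outside it, and stefins hold in check those that reach the cytoplasm by blocking the active site. Stefin B, encoded by Cstb, is made in most cell types, and its human counterpart is mutated in a form of progressive myoclonus epilepsy. In mice the stefin A branch has expanded into a cluster of similar genes, some of which are known from neutrophils and other myeloid cells and some from stratified epithelium, where cystatin A is a component of the cornified layer. S100a9 encodes a subunit of calprotectin, which both neutrophils and inflamed keratinocytes produce, and Krt13 encodes the suprabasal keratin of oral mucosa.

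Read totals recovered from the files ranged from 18040195 to 21770400 in the vehicle group and from 21237167 to 25192539 with GA. Y-linked reads were present in 4 vehicle libraries (1 to 4) and 1 GA library (1), so sex was unequally represented. The gland lipase gene Lipf reached 8228 to 26032 FPKM in vehicle 3, vehicle 5 and GA 2 and was below 1 FPKM in the other 9. Markers of suprabasal oral epithelium were present as labelled (14 of 15 listed, summed level 9814 to 40098 FPKM), as were those of skeletal muscle (7 of 7, summed level 1129 to 8924 FPKM). All levels below are FPKM after scaling between libraries, unless stated otherwise.

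The sequences come first because they decide how far the members can be told apart by short reads. Stfa1, Stfa2, Stfa2l1 and Stfa3 lie in a single cluster on chromosome 16 of GRCm38 that reaches, with the other listed stefin genes, from 36119946 to 36455392. Cstb lies apart on chromosome 10 (78425669 to 78427622, plus strand). Stfa2 (36403992 to 36408457, minus strand) and Stfa2l1 (36156811 to 36161953, plus strand) both encode 103 codons in 3 coding exons, and their coding sequences were 96.5% identical, differing at 11 of 312 bases. The first 300 coding bases are shown for this pair, in which capitals mark the bases that differ between them, and for Stfa3 (36450537 to 36455392, minus strand), in which capitals mark the 56 bases that differ from Stfa2 in this stretch.
Stfa2 coding (chr16:36404039-36408333, minus strand, exons joined): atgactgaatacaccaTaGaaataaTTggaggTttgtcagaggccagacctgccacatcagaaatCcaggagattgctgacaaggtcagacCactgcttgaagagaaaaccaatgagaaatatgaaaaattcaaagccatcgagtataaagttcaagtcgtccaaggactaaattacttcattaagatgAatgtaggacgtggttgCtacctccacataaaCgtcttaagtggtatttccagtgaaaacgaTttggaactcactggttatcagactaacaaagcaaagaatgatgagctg
Stfa2l1 coding (chr16:36156837-36161860, plus strand, exons joined): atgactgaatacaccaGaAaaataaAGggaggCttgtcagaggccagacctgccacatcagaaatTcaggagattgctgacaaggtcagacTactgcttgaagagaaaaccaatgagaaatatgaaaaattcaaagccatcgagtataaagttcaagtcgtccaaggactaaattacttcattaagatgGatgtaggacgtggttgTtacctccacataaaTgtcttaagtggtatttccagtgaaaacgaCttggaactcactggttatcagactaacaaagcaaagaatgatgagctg
Stfa3 coding (chr16:36450621-36455364, minus strand, exons joined): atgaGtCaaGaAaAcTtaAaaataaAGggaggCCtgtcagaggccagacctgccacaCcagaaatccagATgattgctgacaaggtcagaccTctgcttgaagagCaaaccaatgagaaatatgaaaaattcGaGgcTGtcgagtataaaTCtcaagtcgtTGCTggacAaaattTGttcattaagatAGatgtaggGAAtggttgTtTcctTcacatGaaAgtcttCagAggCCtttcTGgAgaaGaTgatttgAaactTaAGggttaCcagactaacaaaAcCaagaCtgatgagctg
The 11 differences between Stfa2 and Stfa2l1 leave long stretches in common, whereas Stfa3 differs from Stfa2 throughout (81.1% identity over the whole coding sequence). Stfa1 (36276951 to 36285373, plus strand; 128 codons in the annotated transcript) was 57.5% identical to Stfa2 over 405 aligned columns, with gaps counted as differences. Its coding sequence is longer than that of Stfa2, at 387 against 312 bases, so gaps lower this value. Cstb (98 codons) was 56.8% identical to Stfa2 over 324 columns, counted in the same way. These values therefore do not show which gene is closer to Stfa2.

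The stretches just upstream of Stfa2 and Stfa2l1 are shown because these near-identical genes had different levels across the libraries, as described below. The 250 bases before the annotated start (RefSeq, GRCm38.p6), with capitals where the pair differ, were 89.4% identical, a lower share than in the coding sequence. The gene spans given above are from another annotation (GENCODE M21). For Stfa2, and for Stfa1 below, the RefSeq start lies inside that span, so part of the window overlaps it. The Stfa2l1 window ends just before its span.
Stfa2 upstream (chr16:36408364-36408613, minus strand): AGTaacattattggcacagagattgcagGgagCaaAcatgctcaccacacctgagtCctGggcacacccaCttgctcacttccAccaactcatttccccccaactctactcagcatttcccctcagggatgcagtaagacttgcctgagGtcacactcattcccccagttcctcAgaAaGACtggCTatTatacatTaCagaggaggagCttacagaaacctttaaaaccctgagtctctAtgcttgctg
Stfa2l1 upstream (chr16:36156561-36156810, plus strand): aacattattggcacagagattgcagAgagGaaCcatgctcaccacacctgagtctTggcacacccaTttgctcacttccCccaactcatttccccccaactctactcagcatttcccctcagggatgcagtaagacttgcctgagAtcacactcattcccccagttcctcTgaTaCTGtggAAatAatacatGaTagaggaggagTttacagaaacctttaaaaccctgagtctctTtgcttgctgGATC
Searched on both strands, the letters GAGGAA, a core bound by the myeloid factor PU.1, occurred at 2 positions upstream of Stfa2l1 and at 1 position each upstream of Stfa2, Stfa1 and Stfa3. Of the other stefin genes of the cluster, Csta1 and Cstdc4 also had 2 positions, Cstdc5 had 1, and Csta2 and Csta3 had 0. These letters occur at least once in 23.3% of all 32851 upstream windows of this length. The share of windows with 2 positions was not counted. The C/EBP letters TTGCNNAA, held by 9.56% of windows, were found upstream of Stfa1 but not of Stfa2, Stfa2l1 or Stfa3.

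Reads from stretches that occur in more than 1 gene cannot be assigned to either, and the study's methods keep only uniquely mapped reads. Of all 50-base windows in its transcripts, Stfa2l1 shared 24.6% with another gene, Stfa1 22.5% and Stfa2 15.9%, while Stfa3 and Cstb shared 0%. With 75-base windows the shares were 7.83% for Stfa2l1, 9.15% for Stfa1 and 5.79% for Stfa2. With 100-base windows Stfa2 and Stfa2l1 shared none, and Stfa1 kept 5.07%. The partners of Stfa2 and Stfa2l1 were mainly each other, and the partners of Stfa1 were Cstdc5 and Cstdc6, which are neighbouring stefin-like genes. Read length is not given in the sources used here, and transcripts rather than the whole genome were searched, so levels of Stfa1, Stfa2 and Stfa2l1 are less certain than those of Stfa3 and Cstb.

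**Figure D1:**
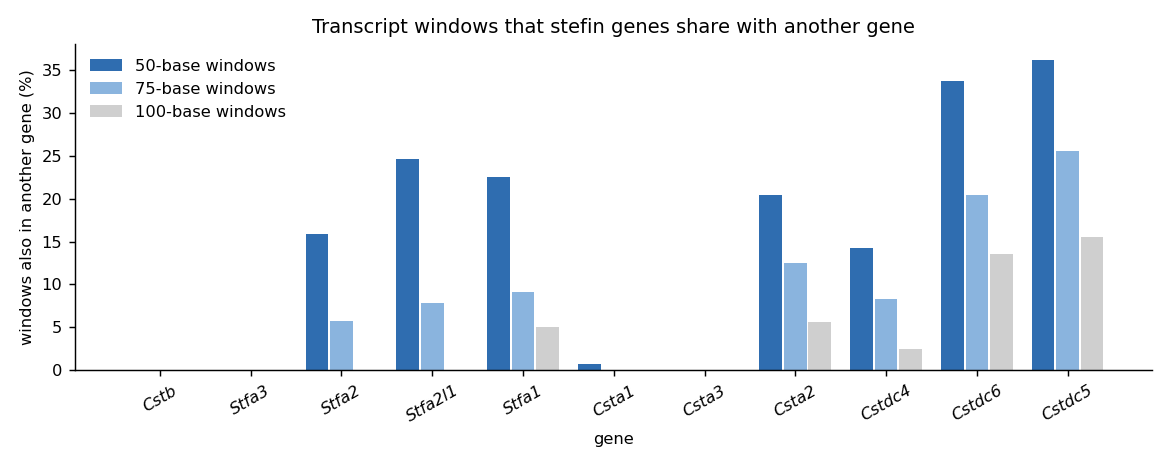
Share of transcript windows (%) that also occur in a transcript of another gene, for 5 members and 6 other stefin genes of the cluster, with bars for windows of 50, 75 and 100 bases. Cstb and Stfa3 have no shared window, and the shares of Stfa2 (15.9%) and Stfa2l1 (24.6%) at 50 bases fall to 0 at 100 bases.

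On this per-length scale Cstb was by far the most abundant member, in 12 of 12 libraries. Its level ranged from 141 to 229 FPKM across vehicle libraries (median 203) and from 104 to 370 FPKM across GA libraries (median 186), and 98.7% of tested genes had a lower mean. Within a library it stood 10.2 to 25.3 times above Stfa3. Stfa3 and Stfa2 came next and did not separate: Stfa2 was above Stfa3 in 4 of 6 vehicle libraries and in 0 of 6 GA libraries, and the ratio of Stfa2 to Stfa3 spanned 0.577 to 1.78 in the vehicle group. Stfa1 lay below both of them in 11 of 12 libraries. The exception was GA 6, where Stfa1 at 2.28 FPKM was above Stfa2 at 1.70 FPKM. Stfa2l1 was at 0 to 0.324 FPKM in 9 libraries and had no fixed place in the order, since it was the second most abundant member in vehicle 5.

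**Figure D2:**
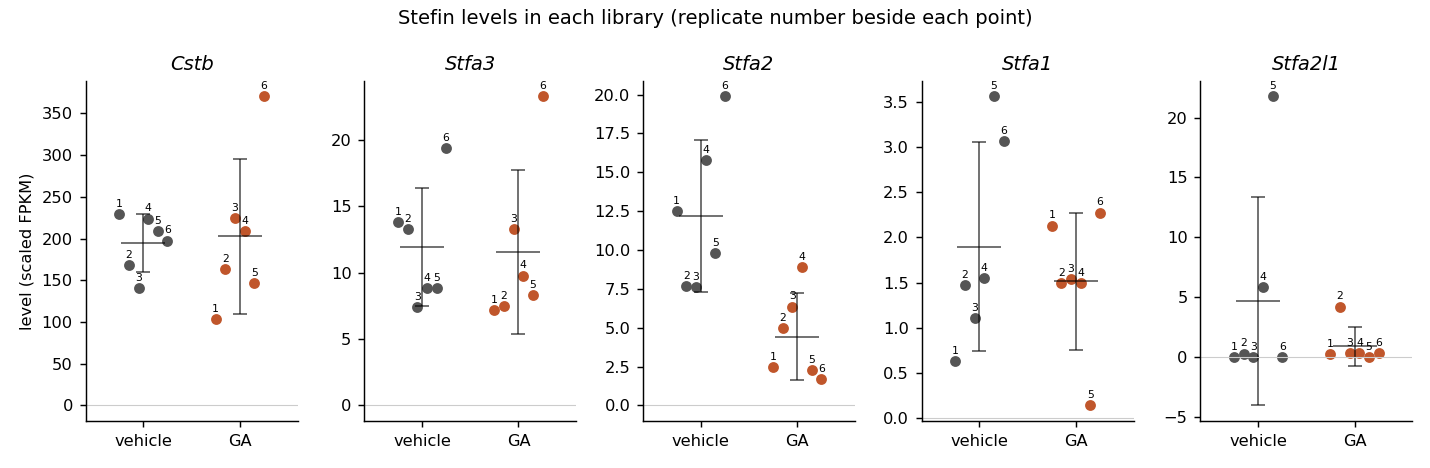
Level of each member (scaled FPKM, linear axes) in 6 vehicle and 6 GA libraries, with replicate numbers beside the points. Horizontal bars and whiskers are mean and SD. Stfa2 is lower in the GA libraries with some overlap, and Stfa2l1 is above 1 FPKM only in vehicle 4, vehicle 5 and GA 2.

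Stfa2 was lower in the GA group. In vehicle libraries 1 to 6 it was at 12.5, 7.67, 7.59, 15.8, 9.78 and 19.9 FPKM, and in GA libraries 1 to 6 at 2.45, 4.96, 6.36, 8.88, 2.26 and 1.70 FPKM. All 6 GA libraries lay below the vehicle median and 5 of 6 below the lowest vehicle library, but GA 4 lay above the 2 lowest vehicle libraries, so the groups overlapped. The means were 12.2 ± 4.89 (SD, n = 6) and 4.43 ± 2.82 FPKM (SD, n = 6). On the log2(FPKM + 0.1) scale the difference, GA minus vehicle, was -1.59 with a standard error of 0.40, a 3.01-fold lower level. This contrast is the reason Stfa2 is described, so the size is not evidence for itself. Across all genes, limma with Benjamini-Hochberg adjustment called 0% of 16852 genes (0 genes at an adjusted p under 0.1 with a log2 change of 0.58 or more either way), and nothing is read from this for the members. With no adjustment 367 genes had p under 0.05, and limma-voom on the recovered reads also called 0 genes, with 344 at that unadjusted limit.

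Sex differed in its shares between the groups, and its part in the Stfa2 difference was not tested. In libraries without Y-linked reads the Stfa2 mean was 14.8 FPKM in 2 vehicle libraries and 4.83 FPKM in 5 GA libraries. With Y-linked reads there were 4 vehicle libraries (mean 10.9 FPKM) and only GA 1 at 2.45 FPKM. Without vehicle 3, vehicle 5 and GA 2, which carried gland RNA, the log2 difference was -1.87, and without vehicle 4, vehicle 5 and GA 2 it was -1.61. In bulk tissue, fewer cells expressing Stfa2 and less Stfa2 RNA per cell cannot be told apart.

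Stfa2l1, nearly identical to Stfa2 in its coding sequence, was distributed in another way. It reached 5.80 FPKM (54 reads) in vehicle 4, 21.8 FPKM (191 reads) in vehicle 5 and 4.20 FPKM (39 reads) in GA 2, and the other 9 libraries held 0 to 3 reads each. Both groups thus contained high and near-zero libraries, with means of 4.64 ± 8.70 (SD, n = 6) in vehicle and 0.893 ± 1.63 FPKM (SD, n = 6) in GA. The log2 difference of -0.38 (standard error 1.41) was smaller than its error and turned positive without vehicle 4 (0.28) or vehicle 5 (0.65), without GA 5 (0.06), without vehicle 4, vehicle 5 and GA 2 together (1.09), with a neutrophil term (1.37) and with a pseudocount of 0.01 (0.53). The 2 libraries with the highest Stfa2, vehicle 6 and vehicle 4 at 19.9 and 15.8 FPKM, had 0 and 54 reads of Stfa2l1, and in vehicle 5 Stfa2l1 exceeded Stfa2 by 2.23 times.

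The same 3 libraries stood apart in genes of neutrophils. Csf3r, the receptor for granulocyte colony-stimulating factor, was at 8.01, 16.3 and 4.35 FPKM in vehicle 4, vehicle 5 and GA 2 and at most 0.973 FPKM elsewhere. Retnlg, a resistin-like protein of neutrophils, was at 9.50, 20.1 and 5.39 FPKM against at most 2.05. Clec4d, a myeloid C-type lectin receptor, was at 6.15, 17.0 and 4.52 FPKM against at most 0.355. Vehicle 5 was highest and GA 2 lowest of the 3 for each of these genes, the order that Stfa2l1 also showed. Cxcr2, Mmp9, Trem1 and Clec4e had this order too, but Mmp8 and Cd177 did not. Mmp8 was at 0.409 FPKM in vehicle 4 and 0.498 FPKM in GA 2, and Cd177 at 0.197 and 0.379 FPKM. Of the 13 neutrophil markers listed, 12 averaged 0.1 FPKM or more, and 9 of these were higher in all 3 of these libraries than in every other library. Among all 16852 genes above that level, 1.96% met this description, and the 3 libraries were picked by Stfa2l1 itself, so the count is descriptive. The 4 markers outside that pattern were S100a8, S100a9, Il1r2 and Ly6g, and Ly6g, a defining surface antigen of mouse neutrophils, had at most 4 reads in any library. Without S100a8 and S100a9, the summed level of the other 11 markers had a median of 16.7 and a maximum of 106 FPKM in the vehicle group, and a median of 13.5 and a maximum of 30.1 FPKM in the GA group. For the whole list it ranged from 1124 to 2596 and from 235 to 1819 FPKM. Among granule genes of immature neutrophils, Elane was at 0 in all libraries and Ngp, Camp, Mpo and Prtn3 stayed below 0.5 FPKM. The other 2 of the 7 listed, Ltf and Lcn2, are also made by glands and epithelia. Ltf was at 0.150, 71.6 and 121 FPKM in vehicle 4, vehicle 5 and GA 2 and reached 84.5 FPKM elsewhere. Lcn2 was at 19.8 and 21.5 FPKM in vehicle 5 and GA 2, and vehicle 4 lay within the 1.17 to 10.9 FPKM of the other 9.

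**Figure D3:**
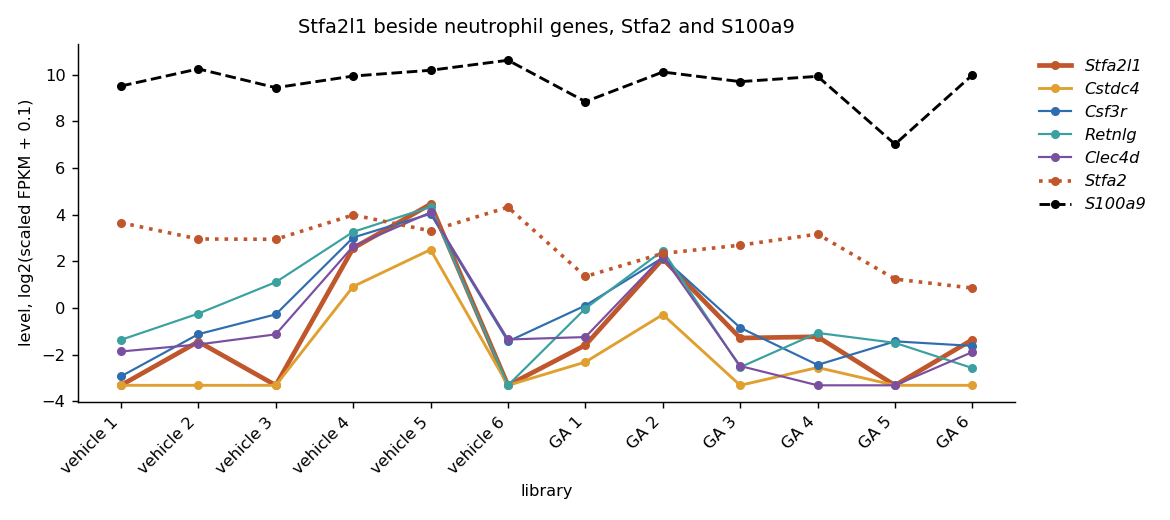
Levels on the log2(scaled FPKM + 0.1) scale in the 12 libraries for Stfa2l1, its neighbour Cstdc4, the neutrophil genes Csf3r, Retnlg and Clec4d, and for Stfa2 and S100a9. Stfa2l1 and the neutrophil genes peak in vehicle 4, vehicle 5 and GA 2, and Stfa2 and S100a9 do not.

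S100a9 did not mark these libraries. It was at 988, 1173 and 1114 FPKM in vehicle 4, vehicle 5 and GA 2, within the 130 to 1581 FPKM of the other 9. Since Stfa2l1 fell into separate clusters of libraries, no correlation coefficient is given for it with S100a9 or Krt13. Krt13 was at 7047, 7554 and 5539 FPKM in these 3 libraries and ranged from 7218 to 22635 FPKM in the other 9. Gland RNA was also high in vehicle 5 and GA 2 but not in vehicle 4, where Lipf had 2 reads. The part of neutrophil content in the level of Stfa2l1 was not tested.

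Stfa1 was a low gene, with 8, 19, 15, 25, 54 and 46 reads in vehicle 1 to 6 and 32, 24, 26, 24, 2 and 41 reads in GA 1 to 6. The levels ranged from 0.635 to 3.56 FPKM in the vehicle group (mean 1.90 ± 1.15, SD, n = 6) and from 0.140 to 2.28 FPKM in the GA group (1.51 ± 0.755, SD, n = 6), so the groups overlapped widely. The log2 difference of -0.39 (standard error 0.56) changed sign to 0.10 without GA 5 and was -1.52 in the libraries without Y-linked reads. Over 12 libraries the log2 levels of Stfa1 and S100a9 gave r = 0.82 and rho = 0.54, with r = 0.81 within vehicle and 0.87 within GA. GA 5 was lowest for both genes, at 0.140 and 130 FPKM. Without it r was 0.41, and without GA 1 it was 0.91. The r of Stfa1 with S100a9 was thus the highest of the 4 members compared over all 12 libraries, but without GA 5 it was the lowest, beside 0.45 for Stfa2 and 0.47 for both Stfa3 and Cstb. With the group means removed, S100a9 ranked 6 among 12156 genes by its r with Stfa1. This rank includes GA 5, was not computed without it, and is descriptive because S100a9 was named together with the members. With Krt13, Stfa1 gave r = -0.34 and rho = -0.19.

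Stfa2 with S100a9 gave r = 0.57 and rho = 0.45, and r fell to 0.18 without GA 1 and GA 5, the libraries farthest from the S100a9 median. GA 6 held S100a9 at 1021 FPKM together with the lowest Stfa2, and without GA 6 r was 0.76. With Krt13, Stfa2 gave r = 0.22 and rho = 0.17. Over all 12 libraries neither partner gene thus had a level that ran closely with Stfa2. With group means removed S100a9 ranked 925 and Krt13 3371 among 12156 genes. All of the 8 relations computed rest on the same libraries, which differed in tissue composition and depth. None of these relations was tested.

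Stfa3 and Cstb showed no sizeable group difference and varied together. Stfa3 ranged from 7.43 to 19.4 FPKM across vehicle libraries (median 11.1) and from 7.15 to 23.3 FPKM across GA libraries (median 9.03), with means of 11.9 ± 4.47 and 11.5 ± 6.16 FPKM (SD, n = 6 each). Its log2 difference was -0.10 (standard error 0.31), and that of Cstb was -0.04 (standard error 0.26) from means of 195 ± 34.3 and 203 ± 92.8 FPKM (SD, n = 6 each). GA 6 was the highest of all 12 libraries for both genes and GA 1 the lowest. Without GA 6 the log2 difference of Stfa3 was -0.33 and that of Cstb -0.23, still within the spread between libraries. The correlation between the 2 genes was r = 0.74 (rho = 0.80).

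Cstb ran with basal and stress keratinocyte markers but not with suprabasal ones. Its level ran with the mean log2 level of 7 basal epithelium markers such as Krt5 and Krt14 (r = 0.83, rho = 0.83, and 0.74 without GA 6 and vehicle 4). It also ran with that of the 4 stress keratins Krt6a, Krt6b, Krt16 and Krt17 (r = 0.82, rho = 0.71, and 0.69 without GA 1 and GA 5), which keratinocytes make on injury. With the 14 suprabasal markers it gave r = -0.26 and rho = -0.08 (r = 0.30 within vehicle and -0.54 within GA). It ran against that of 7 skeletal muscle genes (r = -0.75, rho = -0.91, and -0.83 without vehicle 1 and vehicle 3). With the 8 macrophage markers Cstb gave r = -0.60 and rho = -0.71, and r was -0.38 without GA 1 and GA 2. Stfa3 gave lower values with the same lists, at 0.66 for basal markers, 0.58 for stress keratins and -0.57 for muscle. Within the vehicle group the r of Stfa3 with basal markers was 0.16 and within GA 0.98. These relations were not particular to Cstb and Stfa3. Stfa2 gave r = 0.23 with basal markers and 0.42 with stress keratins, but 0.79 and 0.84 without GA 6. Its r with basal markers was 0.81 within vehicle and -0.33 within GA. The summed basal level ranged from 4490 to 9406 FPKM in the vehicle group and from 2943 to 11753 FPKM in the GA group, all 7 markers being present. What share of each library was epithelium, and its part in these levels, was not tested.

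Over all 12 libraries neither Stfa3 nor Cstb followed S100a9 or Krt13 closely. Stfa3 gave r = 0.41 (rho = 0.47) with S100a9 and 0.37 (rho = 0.45) with Krt13. Its r with Krt13 was 0.81 within vehicle, -0.12 within GA and 0.65 without GA 6. Cstb gave r = 0.44 (rho = 0.29) with S100a9, which dropped to 0.03 without GA 1 and GA 5. With Krt13 Cstb gave r = 0.00 (rho = 0.15). The within-group values rest on 6 libraries each.

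**Figure D4:**
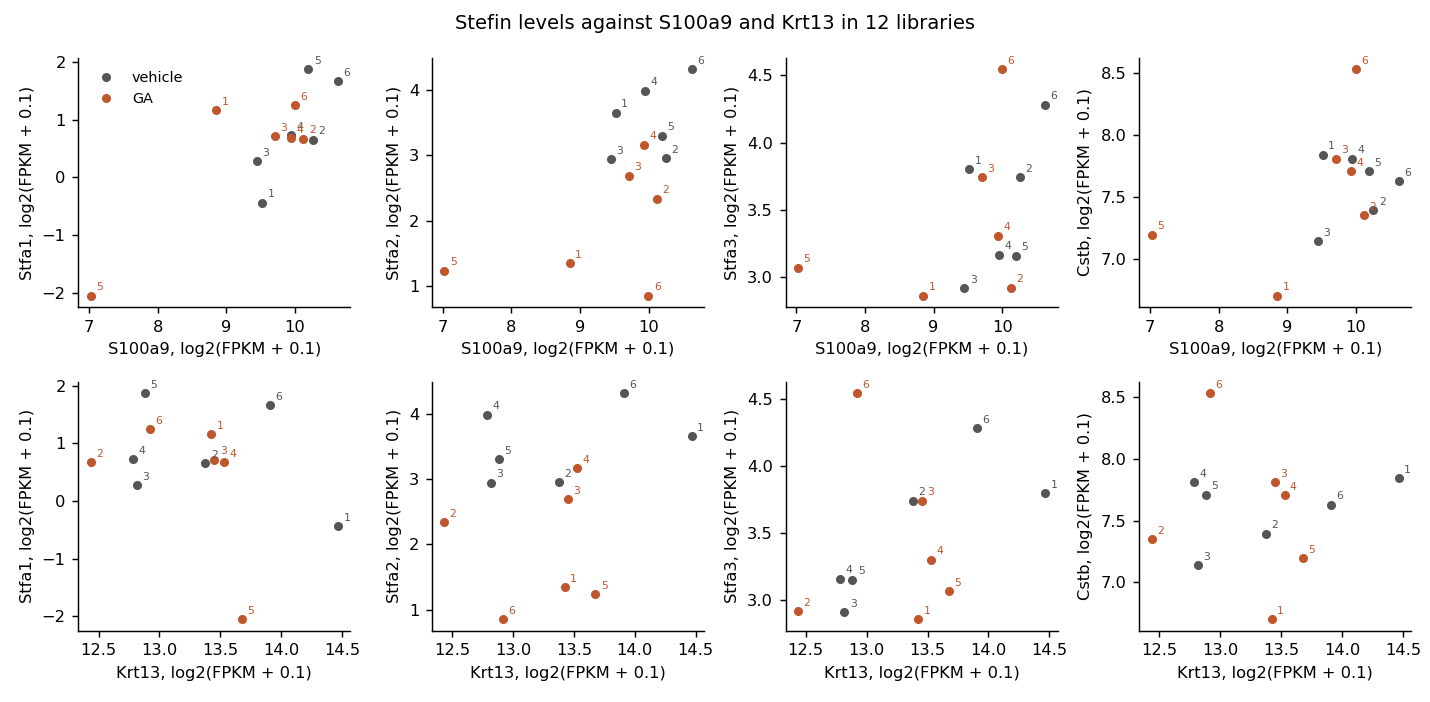
Log2 levels of Stfa1, Stfa2, Stfa3 and Cstb (vertical axes) against S100a9 (upper row) and Krt13 (lower row), with each point 1 library and its replicate number. GA 5 lies far left in the S100a9 panels, and GA 6 is highest for Stfa3 and Cstb but lowest for Stfa2.

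The other stefin genes of the cluster divided along the same lines. Cstdc4, the next listed gene to Stfa2l1 on chromosome 16 (36184212 to 36188111, plus strand), had 77, 225 and 31 reads in vehicle 4, vehicle 5 and GA 2 and 0 to 4 reads in each of the other 9. Csta1, the gene for stefin A1, was the most abundant of the cluster, with 33.8 to 78.4 FPKM in vehicle and 23.7 to 84.9 FPKM in GA. It ran with Cstb (r = 0.77, rho = 0.64) and Stfa3 (r = 0.77, rho = 0.71), and its r with the stress keratins was 0.88. Csta2, Csta3 and Cstdc6 each had their highest level in GA 6, at 18.8, 22.4 and 21.6 FPKM, where the next highest libraries were at 3.04, 9.78 and 7.96 FPKM. Stfa2 was thus lowest in the library in which 4 of the 6 cluster genes, Stfa3 and Cstb were highest. Cstdc5 was highest in vehicle 6 at 63.9 FPKM and ranged from 3.65 to 29.2 FPKM in the GA group. Cstdc5 and Cstdc6 share 36.2% and 33.7% of their 50-base windows with other genes.

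By group, all 6 of these genes overlapped between vehicle and GA. GA minus vehicle on the log2 scale was negative for 5 of 6 (median -0.80), beside 8838 of all 16852 genes (median -0.01). The 5 members were also negative (median -0.38), but they were chosen with this contrast known, so their signs are descriptive. Genes of the cluster share sequence and libraries, so their signs are not independent of each other. These signs were the same under each scaling tried, but leaving out a single library turned the sign of every member other than Stfa2 and that of Csta2. The largest of the 6 was Cstdc5 at -1.01 (standard error 0.59), and 0 of 6 were called, as were 0% of all 16852 genes. Csta2 was at 0.04 (standard error 0.88). Without GA 6 the difference was -1.32 for both Csta3 and Cstdc6. The log2 difference was also negative for 4 of 4 stress keratins (median -0.66) and 12 of 12 neutrophil markers tested (median -0.76). In both lists 0 were called, and Cxcr2 and Mmp8 lay above the vehicle median in 4 GA libraries each. The difference was negative for 2 of 2 immature neutrophil, 4 of 4 gland, 10 of 14 suprabasal and 6 of 7 basal genes. For macrophage and T cell markers it was negative for 5 of 8 and 3 of 5. Skeletal muscle genes went the other way, with 6 of 7 positive (median 0.47). The summed level of the stress keratins ranged from 11062 to 25164 FPKM in vehicle and from 4623 to 23522 FPKM in GA, and the r of Cstdc6 with them was 0.89 (0.21 within vehicle and 0.97 within GA). Their part in these differences was not tested.

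The cysteine protease list held lysosomal cathepsins, which stefins inhibit, and legumain (Lgmn), a target of some secreted cystatins. Of 11 cysteine proteases, all measured, 0 were called by limma and 0 had an unadjusted p below 0.05. Over all 16852 genes these shares were 0% and 2.18%, so nothing is read from the 0 calls for the proteases. The log2 difference was negative for 7 and positive for 4, and values ran from -0.42 to 0.21 around a median of -0.09. Ctsb, the most abundant, was at 73.8 ± 24.1 in vehicle and 58.6 ± 16.5 FPKM in GA (SD, n = 6 each), a log2 difference of -0.32 (standard error 0.22). Ctsc, the protease that activates granule serine proteases of neutrophils and other leukocytes, had the largest decrease of the list at -0.42 (standard error 0.32). Ctsl, a broad lysosomal cathepsin, was at 0.12 (standard error 0.29), and Ctss, known from antigen-presenting cells, at -0.26 (standard error 0.49). As for all 16852 genes, none of these differences passed the test.

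The rest of the cystatin superfamily, secreted inhibitors and plasma glycoproteins, was measured in part. Of 15 listed genes 7 averaged 0.1 FPKM or more, 0 were called and 0 had an unadjusted p below 0.05 by limma. The shares over all 16852 genes were 0% and 2.18%, so nothing is read from the 0 calls here either. The log2 difference was negative for 2 and positive for 5, around a median of 0.11. Fetub, the plasma glycoprotein fetuin-B, was at 257 ± 267 in vehicle and 166 ± 75.9 FPKM in GA (SD, n = 6 each), a log2 difference of -0.37 (standard error 0.48). Cst3, the secreted cystatin C, had a mean close to that of Cstb, at 219 ± 54.6 and 224 ± 59.5 FPKM (SD, n = 6 each), a difference of 0.00 (standard error 0.24). Cst6, an inhibitor known from the epidermis, was at 16.0 ± 7.80 and 13.3 ± 1.38 FPKM (SD, n = 6 each). Cst7, an inhibitor found in leukocytes, exceeded the median vehicle library in 6 of 6 GA libraries but with only 9 to 14 reads in each, and its log2 difference was 0.81 (standard error 0.49).

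**Figure D5:**
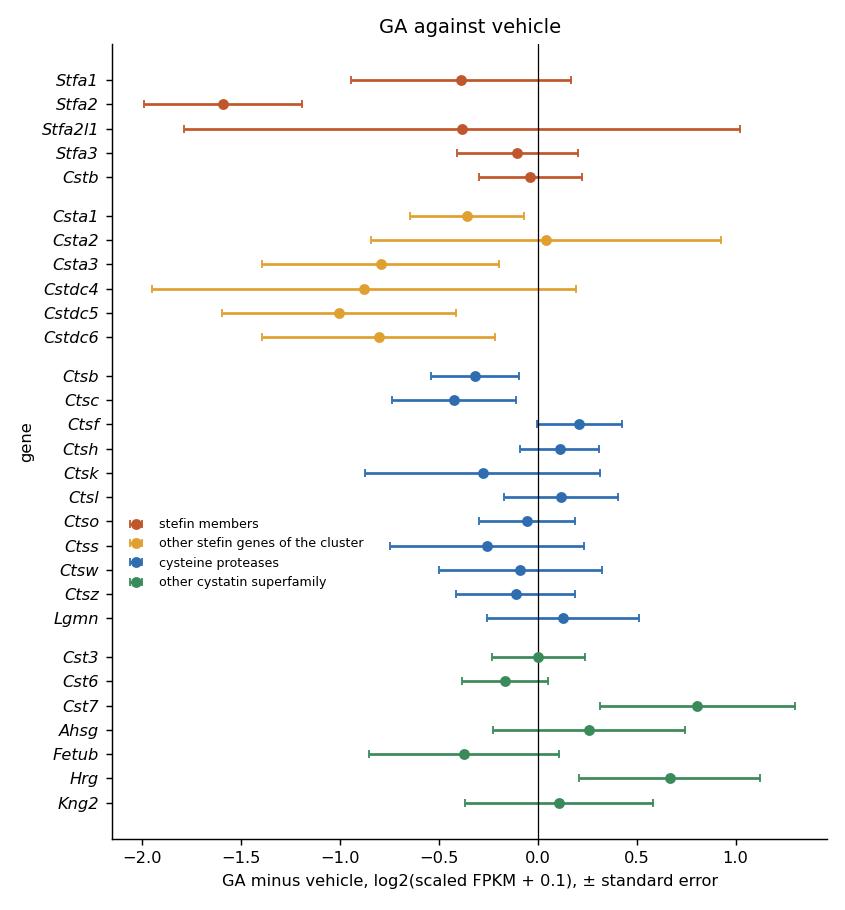
GA minus vehicle on the log2(scaled FPKM + 0.1) scale, with standard errors from limma, for the 5 members, 6 other stefin genes of the cluster, 11 cysteine proteases and 7 other cystatin superfamily genes. Stfa2 at -1.59 is farthest from 0, and none of the 16852 genes tested, those shown included, passed the test.

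Outside the family, the genes whose log2 levels ran closest to each member, with group means removed and 12156 genes compared over 12 libraries, differed from member to member. For Cstb they were Txndc17, a thioredoxin-like protein (r = 0.97), Ppard, a nuclear receptor (0.97), and Dusp7, a phosphatase of MAP kinases (0.97). For Stfa3 they were Stard4, a sterol carrier (0.95), Sumo2, a ubiquitin-like modifier (0.93), and Fam162a (0.92). For Stfa2 they were Timm13, a chaperone of mitochondrial import (0.92), Fastkd5, a mitochondrial RNA-processing protein (0.89), and Banp (0.89). For Stfa1 they were Eva1b (0.89), Coprs (0.86) and Marcks, a substrate of protein kinase C (0.86). For Stfa2l1 the closest were Acod1, the enzyme that makes itaconate in activated myeloid cells, Il1rl1, the receptor of interleukin-33, and Clec4n, a myeloid lectin receptor. Acod1 was at 6.76, 11.7 and 2.41 FPKM in vehicle 4, vehicle 5 and GA 2 and at most 0.235 FPKM in the other 9, so this likeness rests on those 3 libraries. No gene appeared among the 3 closest of more than 1 member.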

How the data were processed

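Bulk RNA-seq of tongue from 12 mice was analysed. Per the study's methods, the authors used HISAT2 (mm10) for alignment and featureCounts for gene-level counting of reads with a single match, and deposited FPKM values, from which depth was recovered: with exon lengths of GENCODE M21, 97.8% to 98.4% of values worth 1 to 8 reads came out whole (tolerance 0.02), if lengths were shortened by 17.0 to 24.2 bases. Rows without a gene name (41.4% of 55463) were left out. Scaling factors between libraries (0.896 to 1.07) came from trimmed mean log ratios, and libraries were compared with limma 3.58.1 (R 4.3.3) on log2(FPKM + 0.1), which understates changes of low genes, for genes averaging 0.1 FPKM or more. Replicates are numbered in the labels but not tied to animals, so p-values measure the spread between these samples. The text names the members, every listed gene that bears on a result, and for each member the 3 closest genes averaging 1 FPKM or more. Members and lists were chosen with earlier results of these data known. Alternatives covered pseudocount, filter, scaling, covariates, a replicate block and left-out libraries. Correlations of Stfa2l1, planned, were left out because its libraries cluster. Coding sequences are from GENCODE M21 and upstream windows from RefSeq. Protein sequences were not used here.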

Additional observations from a re-analysis of the deposited data

Results flagged for a closer look

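Among 26 groups of 6 libraries checked (5 members, 6 other stefin genes, S100a9 and Krt13 in each treatment group, on the log2 scale), 2 held a library whose gap to its neighbour was above Dixon's limit for 6 values, where chance gives about 1 in 20. Stfa1 in GA 5, at 0.140 FPKM (2 reads), was the lowest of its group, with the next library at 1.49 FPKM. Cstdc4 in GA 2, at 0.720 FPKM (31 reads), was the highest of its group, with the next at 0.0998 FPKM.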

How the results depend on the processing

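Over all 16852 genes the count of 0 called genes moved to 335 with an unadjusted p below 0.1 and the same fold change limit, to 1 without vehicle 4, vehicle 5 and GA 2, and to 2 in the libraries without Y-linked reads. Leaving out each library in turn gave 0 to 1 genes. The counts of called cysteine proteases and of other cystatin superfamily genes were 0 under all alternatives run. For Stfa2 the sign held under 27 of 27 alternatives (log2 difference -1.87 to -1.36, and -1.84 to -1.37 leaving out each library). It held under 26 of 27 for Stfa1 (-1.52 in the libraries without Y-linked reads, and -0.64 to 0.10 leaving out each library), 25 of 27 for Stfa3, 21 of 27 for Stfa2l1 (1.37 with a neutrophil term and 1.09 without vehicle 4, vehicle 5 and GA 2) and 20 of 27 for Cstb, and the cause was not tested. Alternatives that set aside libraries by gland, neutrophil or Y-linked reads were chosen after seeing the data.

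The same replicate numbers occur in both groups, and the labels do not say whether they pair libraries. Same-numbered libraries did not deviate together (r of -0.37 to 0.08), but this cannot exclude a pairing. With a replicate block, 0 genes were called, and the difference was -1.59 for Stfa2 (standard error 0.42), -0.39 for Stfa1, -0.38 for Stfa2l1, -0.10 for Stfa3 and -0.04 for Cstb.

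Of the correlations with S100a9, that of Stfa1 lay between 0.41 and 0.91 leaving out each library. That of Stfa2 lay between 0.45 and 0.76, and was 0.18 without the 2 libraries farthest from the S100a9 median. That of Stfa3 was 0.58 within vehicle and 0.62 without vehicle 4, vehicle 5 and GA 2. That of Cstb was 0.18 within vehicle, 0.027 without the 2 farthest libraries and 0.29 by Spearman's rho. Of the correlations with Krt13, that of Stfa3 was 0.81 within vehicle, -0.12 within GA and 0.65 without GA 6. That of Cstb was 0.38 within vehicle and -0.28 without the 2 farthest libraries. Depth limits Stfa1 and Stfa2l1 most, since 2 to 54 and 0 to 191 reads were available per library.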
